A study of Mus musculus with 12 samples.

Results

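The subject is the DNA methylation of 10 activity-dependent immediate early genes, Fos, Fosb, Junb, Egr1, Egr2, Egr3, Egr4, Arc, Npas4 and Nr4a1, in the brains of Tg2576 (Tg) and wild-type (Wt) mice. Every CpG row in the body of one of these genes, or within 2 kb upstream of it, was taken if at least 9 of the 12 libraries covered it with 10 or more reads. A row is the cytosine of a CpG on 1 strand, so that a CpG read on both strands gives a pair of rows. The genes held 1996 such rows of 1697478 in the genome, between 70 in Npas4 and 359 in Egr3. The gene models were those of GENCODE vM21 on mm10.

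The assay was RRBS (reduced representation bisulfite sequencing), which samples CpG-rich fragments and reads a methylated cytosine as C and an unmethylated one as T. Each library came from 1 brain, dissected so that it held dorsal hippocampus together with cortex, at 11 months of age. Among Wt mice 3 were labelled female and 1 male, and the Tg mice were 4 of each sex. Tg2576 mice express human APP, driven by a prion promoter, with a mutation that causes inherited Alzheimer's disease, and the Wt mice carried no transgene. Since the tissue was bulk, a change in the mixture of cells and a change in the methylation of 1 cell type cannot be told apart.

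Immediate early genes are transcribed within minutes of synaptic activity, without new protein synthesis, by factors such as CREB, SRF and MEF2 that are already in the nucleus. Most encode transcription factors that turn on later genes, and Arc encodes a synaptic protein that promotes the removal of AMPA receptors. In hippocampus and cortex they mark neurons that were recently active. Their promoters are CpG-rich, and such promoters are usually free of methylation.

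The sequences that carry the results lay inside the genes, not at their starts. They are printed from the mm10 reference on the strand of the gene, with the bases of each CpG that had a measured row in capitals. The Fos, Egr2 and Npas4 sequences are the coding stretches in which methylated rows lay together. The Egr2 sequence encodes part of the zinc fingers that bind DNA.
Fos chr12:85476138-85476437: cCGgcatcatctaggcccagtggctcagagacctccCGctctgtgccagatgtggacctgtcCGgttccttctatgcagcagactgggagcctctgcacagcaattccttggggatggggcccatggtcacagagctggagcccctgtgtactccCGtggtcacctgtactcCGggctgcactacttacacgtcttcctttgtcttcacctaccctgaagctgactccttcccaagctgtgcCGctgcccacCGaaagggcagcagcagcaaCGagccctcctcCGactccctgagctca
Egr2 chr10:67540778-67540843: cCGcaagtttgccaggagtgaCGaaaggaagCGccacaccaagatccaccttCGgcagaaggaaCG
Npas4 chr19:4988113-4988271: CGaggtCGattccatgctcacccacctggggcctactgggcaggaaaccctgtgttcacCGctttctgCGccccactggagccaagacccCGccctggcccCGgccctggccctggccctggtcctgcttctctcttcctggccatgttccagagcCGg
Fos and Egr2 lie on the plus strand of the genome and Npas4 on the minus strand. Rows were measured at 9 of the 10 CpGs of the Fos sequence, which was shortened to 300 bases, at all 5 of the Egr2 sequence and all 7 of the Npas4 sequence.

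The libraries held between 33619981 and 131446104 reads summed over rows, and between 38135 and 131062 on the rows of the 10 genes. Tg female 4 was the shallowest, with a median of 22 reads per row of these genes, and Tg female 1 the deepest, with 64. Wt female 2 lacked 22.8% of the rows. The library labelled Wt male went against its label. Its mean level on chromosome X was 19.9%, near the 20.7% to 23% of the libraries labelled female and far from the 5.50% to 5.67% of the Tg males. It also had 162 rows on chromosome Y, against 553 to 1147 in Tg males and 79 to 389 in females. Counts of calls and the regions nearest to a difference are therefore also given without it. The promoters of 5 oligodendrocyte marker genes averaged 3.76% ± 0.959 (SD, n = 4) in Wt and 2.93% ± 0.443 (n = 8) in Tg animals, with ranges of 2.89% to 5.11% and 2.27% to 3.52%. Those of 8 neuronal marker genes averaged 2.63% ± 0.733 and 2.67% ± 0.303. Of the 5 oligodendrocyte promoters, Olig1, Olig2 and Sox10 had lower means in Tg (limma adjusted p = 0.992 for each), while Mbp was at 4.70% in Wt and 4.90% in Tg and Cnp at 0.599% and 0.845%. The binomial model described below called 4.39% of all rows. Among marker rows it called 6.88% for neurons, 5.57% for oligodendrocytes, 2.97% for astrocytes and 6.05% for microglia. The part of the cell mixture in the results below was not tested.

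The immediate early genes were mostly unmethylated. Of the 1996 rows, 1778 (89.1%) had a mean level under 5%, compared with 71.6% of all rows in the genome, and 434 had no methylated read in any library. Only 84 rows reached 20%, of which 17 reached 80%. Within 1000 bp of a transcription start, 10 of 1130 rows reached 20%. Further out it was 74 of 866. The share changed with distance. From 1 to 2 kb from a start, 1 of 554 rows reached 20%, or 0.181%, compared with 16.4% of rows at that distance in all protein-coding genes. Beyond 2000 bp it was 73 of 312, or 23.4%, compared with 62.5%. Of the 84 methylated rows, 69 lay in coding exons, 9 in introns, 5 in untranslated regions and 1 upstream. The plot of rows by distance shows the unmethylated part around each start and the methylated stretches beyond it.

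**Figure D1:**
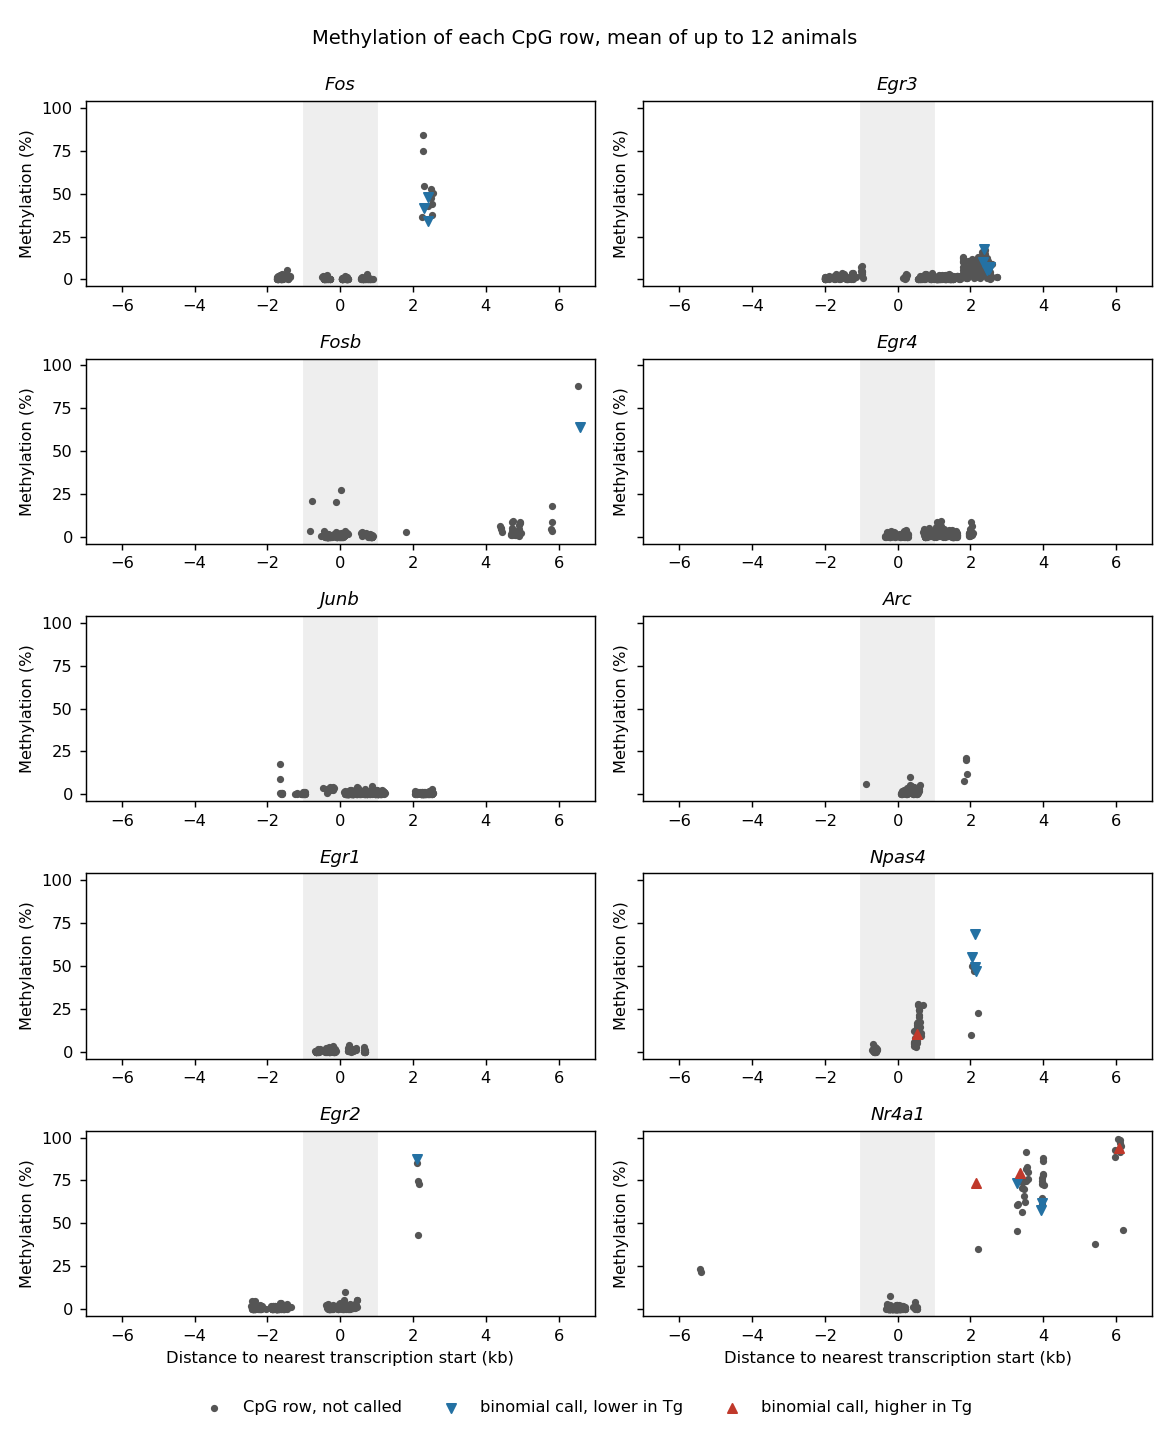
Each point is 1 CpG row, placed by its distance in kb from the nearest transcription start of the gene (x axis, negative upstream) and its mean methylation in percent over the animals that covered it (y axis). Triangles are rows called by the binomial model (22 in all, 18 lower and 4 higher in Tg), and the grey band is the promoter of 1 kb either side of a start, where nearly all rows lie near 0%.

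**Figure D2:**
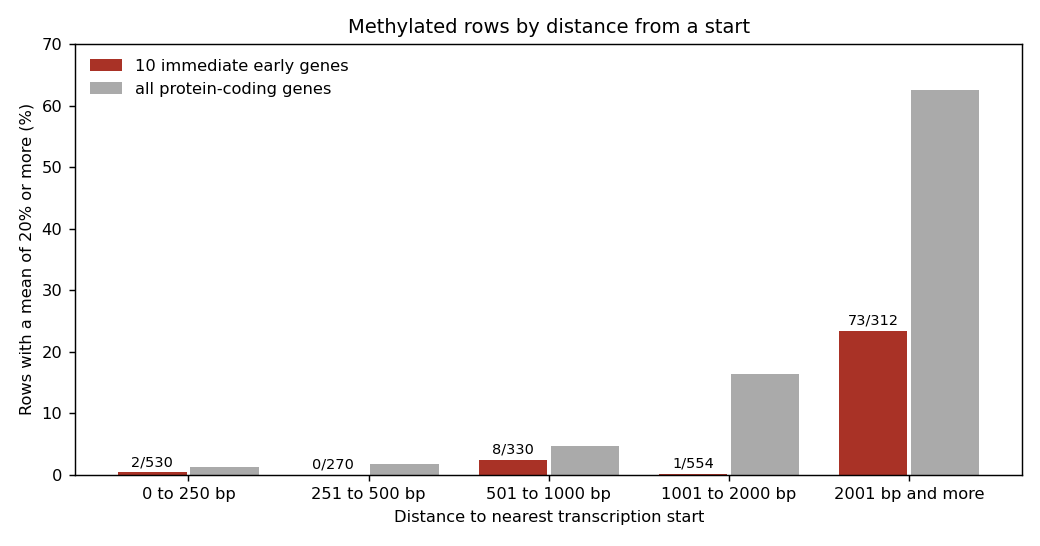
Bars give the percent of CpG rows with a mean of 20% or more in 5 classes of distance from the nearest transcription start, red for the 10 genes and grey for all protein-coding genes. Figures over the red bars are rows at 20% or more of all rows of these genes, and the red bar is lower in every class, with 23.4% against 62.5% beyond 2000 bp.

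The FOS and JUN family members, which pair to form the AP-1 transcription factor, differed in how much methylated sequence they held. Fos (chr12:85473890-85477273) had a mean of 0.436% over its promoter rows. Its 13 methylated rows all lay between 2249 and 2553 bp from the start, in a coding exon, at 34.4% to 84.4%. Over this stretch the methylated share of reads was 52.1%, 58.6% and 57.7% in the 3 Wt females and 46.8% in the library labelled Wt male. In Tg animals it ranged from 40% to 64.5%, with a median of 48.2%. The values overlapped fully. Junb (chr8:84974484-84978718) had no row at 20%, and 288 of its 290 rows were under 5%.

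Fosb (chr7:19302696-19310051), whose truncated product DeltaFosB accumulates with repeated activity, had a pair of rows in its 3' untranslated region at 64.0% and 87.9%. Its promoter held isolated methylated rows amid unmethylated neighbours. The row 29 bp after a start, at chr7:19309571 on the minus strand in the 5' untranslated region, averaged 27.4%. It was at 28.9%, 8.33% and 33.6% in the Wt females and 43.2% in the library labelled Wt male, and at 12.2% to 37.8% in Tg animals. All 12 neighbouring rows within 50 bp, the opposite strand of the same CpG at 1.10% among them, were between 0% and 1.77%. The row at a distance of -118 bp from a start, chr7:19309718 on the plus strand, averaged 20.5% and varied less, from 9.26% to 26.9%, with 26 neighbours at 0% to 2.70%. Neither was called between genotypes (model fitted across all rows, overdispersion adjusted p = 0.929 and 0.816).

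The EGR genes encode zinc finger factors that bind GC-rich sites, and Egr1, also called Zif268, is needed for the late phase of long-term potentiation. All 80 rows of Egr1 lay within 1000 bp of a start and all were under 5%. Egr2 (chr10:67535475-67542188) had 241 of 250 rows under 5%, and its 5 methylated rows were the 5 CpGs of the sequence above, at 43.2% to 87.5%. Their methylated share was 80.6%, 69.3% and 65.5% in the 3 Wt libraries that covered them and 60.3% to 85.2% in Tg animals. Egr3 (chr14:70077203-70082614) had no row at 20%, but 76 of its 359 rows were between 5% and 20%, compared with 25 of 70 in Npas4. Egr4 (chr6:85511121-85513589) had 309 of 316 rows under 5% and none above 9.39%.

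The methylated Egr2 sequence was compared with its closest match in each other EGR gene. The best ungapped match of its 66 bases was identical at 50 in Egr3, at 48 in Egr1 and at 47 in Egr4. In Egr3 the match held 8 CpGs with 12 measured rows, at 0.855% to 12.3%, and per animal the mean was 0% to 14.1%. In Egr2 the mean per animal was 60.2% to 85.3%. The ranges of the 11 animals that covered each gene were apart. The Egr2 sequence was picked because its rows were methylated, and the highest row anywhere in Egr3 averaged 17.8%. A gap between the genes therefore follows from the choice and is only described. The matched bases were mostly methylated in Egr2 and mostly unmethylated in Egr3. Whether they encode the same part of the zinc fingers was not tested. The match had 1 CpG in Egr1 and 9 in Egr4, and none had a measured row.

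The remaining genes held both patterns. Arc (chr15:74669083-74672570) had 65 of 74 rows under 5%. Its most variable row, at chr15:74670679 in the 3' untranslated region, was at 41.7%, 22.2%, 18.8% and 0% in Wt and at 0% to 43.8% in Tg animals. Npas4 (chr19:4984355-4990316), a factor induced by calcium entry in neurons that shapes inhibitory synapses, was the gene least free of methylation near its start. Its promoter averaged 10.2% over the 46 rows read in every library, higher than 93.7% of 13053 protein-coding promoters. The promoters of the other 9 genes averaged between 0.477% and 2.02%. The methylated Npas4 rows near the start lay 560 to 694 bp inside the gene, at 9.10% to 27.9%. A further stretch, the Npas4 sequence printed above, averaged 48.7% over its 7 rows.

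Nr4a1 (chr15:101254269-101274795), which encodes the orphan nuclear receptor NUR77, showed the strongest contrast. Its 187 promoter rows averaged 0.570%, and its 46 rows further out averaged 71.8%. They formed separate stretches. In coding exons 3277 to 3583 bp from the nearest start, 20 rows ranged from 45.3% to 91.6%. From 3940 to 4014 bp, 12 rows ranged from 57.6% to 88.3%, and from 5959 to 6179 bp, 9 rows ranged from 46.3% to 99.1%. The last of these stretches was the most uniform, with 80.6% to 87.5% in Wt and 80.8% to 89.6% in Tg animals.

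**Figure D3:**
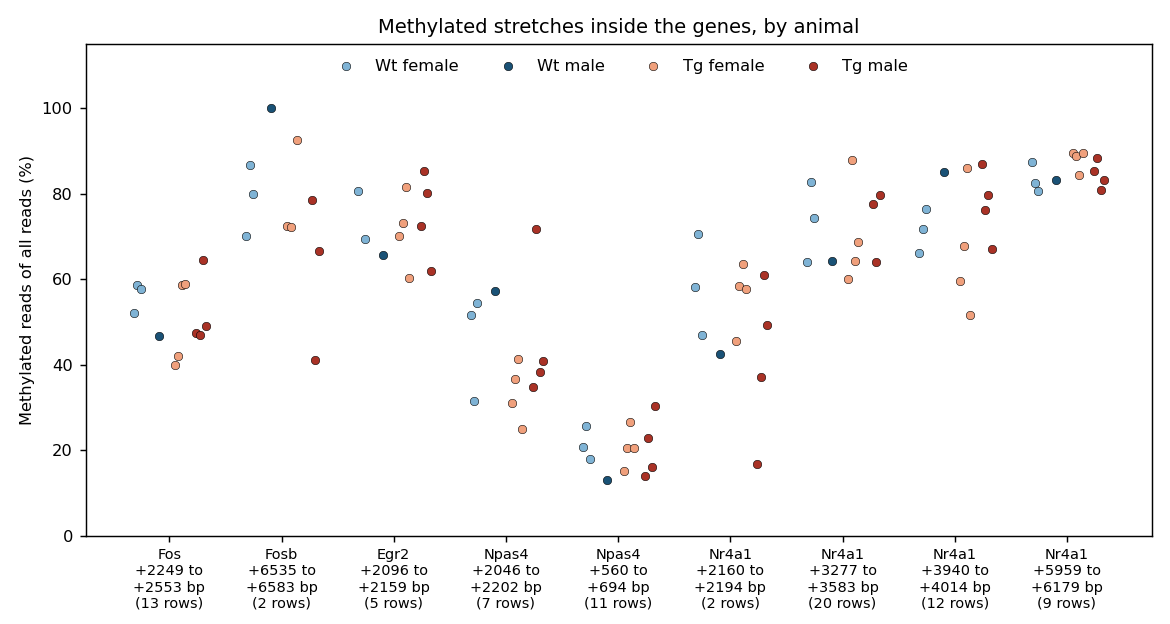
Each point is 1 animal and gives the methylated reads as percent of all reads over the rows of a stretch (y axis), for 9 stretches named by gene and distance in bp from the nearest start (x axis). Wt and Tg points overlap in every stretch, and the Nr4a1 stretch at 5959 to 6179 bp has the narrowest spread, from 80.6% to 89.6%.

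Some factors that bind these genes, CREB and the EGR proteins among them, recognise DNA motifs that contain a CpG. The full cyclic AMP response element bound by CREB, TGACGTCA, was not found on either strand of any of the 10 genes or the 2 kb before them. It occurs in 1.79% of the 32851 RefSeq start windows of 300 bases on GRCm38.p6. Its core TGACG, which the full element contains, was found in at least 1 window of all 7 genes that had one there. It was in 20.8% of all windows. The measures are unlike, since a gene counted if any of its windows held the core and the share is over single windows. Measured rows inside a TGACG were unmethylated in all but a few places. Of all rows of the 10 genes, 89.1% were under 5%, so this is not particular to the core. No copy in Egr3, Arc or Npas4 had a measured row, and in Egr1 1 of 9 copies did. In Fos 8 rows in 5 copies were between 0% and 1.27%, in Nr4a1 9 rows were between 0% and 0.703%, and in Junb 9 rows were between 0% and 1.30%. The exceptions past 5% were a Fosb row at 6.74% in the 3' untranslated region and an Egr2 row at 87.5%, in the coding stretch 2116 bp from a start. The EGR motif GCGTGGGCG was in the windows of 0 of the 7 genes and in 0.612% of all windows. Outside the windows, copies with measured rows lay in the bodies of Junb and Egr4, and those 10 rows were between 0% and 1.28%. These matches say only where the letters stand.

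The comparison of Tg with Wt animals asked which CpGs change with the transgene. It was run on all rows of the genome with sex as a covariate. Sex was taken from the labels, so the library labelled Wt male counted as male although its chromosome X and Y values went against this. In the binomial model, which treats every read as an independent draw, a call needed an adjusted p under 0.1 and a difference of at least 10 percentage points. Differences given for rows and tiles are Tg minus Wt after pooling the reads of all animals of a group. Deeper libraries therefore weighed more, and a difference can depart from the gap between the means per animal. This called 22 of the 1996 rows, or 1.10%, compared with 4.39% of all rows. Of these, 18 were lower in Tg, by 10.1 to 25.7 points, and 4 were higher, by 11.6 to 16.1 points, compared with 2.0% and 2.39% of all rows in these directions. Calls need methylation to vary: among rows between 20% and 80%, 13 of 67 were called, or 19.4%, compared with 21.7% of all such rows, and of the 1778 rows under 5% none was called, compared with 0.0759% of all such rows. They fell in Egr3 and Nr4a1 (6 rows each), Npas4 (5), Fos (3), Fosb and Egr2 (1 each). Junb, Egr1, Egr4 and Arc had none. Coding exons held 20 of the 22.

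None of these rows was called once animals of a group were allowed to differ by more than counting error. The overdispersion model called 0 of the 1996 rows and 0% of all rows, with a smallest adjusted p of 0.512. Before adjustment 188 of the rows were below 0.05, or 9.42%, compared with 9.41% of all rows, and 63.8% of them were lower in Tg, compared with 60.2% of all rows below 0.05. Of the 22 rows called by the binomial model, 11 had an unadjusted overdispersion p under 0.05. Coverage was uneven at the called rows: 11 of the 22 had no value for Wt female 2, 11 had none for Tg female 4, and 1 was covered in all 12 libraries. When only rows read in every library were used, 1 of 1289 rows was called, compared with 16871 of 980547 rows over the genome.

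In Egr3 all 6 calls lay in a coding exon and all were lower in Tg. Without the library labelled Wt male 2 of the 6 remained. At chr14:70079663 on the plus strand the level was 16% and 27.8% in Wt females 1 and 3, without a value for Wt female 2, and the library labelled Wt male had 21.4%. In 7 Tg animals it was 0% to 12%, with a median of 7.89%. It was the only called row of the 10 genes whose Wt and Tg ranges were apart. This was 1 of 22 calls, compared with 3224 of 74455 calls over all rows. As a share of rows tested it was 1 of 1996, compared with 3224 of 1697478, or 0.19%. The difference was -14.6 points (binomial adjusted p = 0.00334, overdispersion p = 0.0131, adjusted p = 0.522). The opposite strand of the CpG differed by -1.17 points. At chr14:70079829 the levels were 18.2%, 9.52% and 19.6% in Wt and 0% to 10.3% in 8 Tg animals, and the difference was -12.6 points (model across all rows, overdispersion adjusted p = 0.521). Here Tg female 2 lay above Wt female 3, and the ranges overlapped.

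The Npas4 stretch held 4 calls, all lower in Tg by 20.9 to 24.8 points. Without Tg female 1 the whole gene had 2 calls lower and 2 higher in Tg, against 4 and 1 with it. At chr19:4988169, the call with the smallest overdispersion p, the 3 Wt libraries with a value had 51.7%, 63.6% and 69.2%. In 7 Tg animals the level was 10% to 85.7%, with a median of 30.8%. Tg male 2, at 85.7%, was above every Wt library and Tg male 4 was within their range. The difference was -20.9 points (binomial adjusted p = 0.00748, overdispersion p = 0.0430, adjusted p = 0.525). The most variable row of the gene, at chr19:4988264, ranged from 42.9% to 100% in Wt and from 12.5% to 76.9% in Tg. The fifth call, at chr19:4989784 near the start, was the one read in all 12 libraries and went the other way, from a mean of 3.84% ± 4.51 (SD, n = 4) in Wt to 13.7% ± 9.27 (n = 8) in Tg (overdispersion adjusted p = 0.527).

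Fos had its 3 calls in the printed coding stretch, lower in Tg by 12.4 to 25.7 points, and 2 of them remained without the library labelled Wt male, without Wt female 3 or without Tg female 1. At chr12:85476200 the Wt levels were 54.5%, 50%, 40% and 69.2%, and 6 Tg animals ranged from 16.7% to 50%, with a median of 35.5%. The 3 Tg females lay below all Wt libraries, while the 3 Tg males reached from 42.4% to 50% and overlapped them. The difference was -15.0 points (overdispersion adjusted p = 0.513), and the opposite strand differed by -1.63 points. The Fosb call, at chr7:19303017 in the 3' untranslated region, was at 52%, 73.3%, 73.3% and 100% in Wt and at 40% to 84.6% in 6 Tg animals (overdispersion adjusted p = 0.621). The Egr2 call, at chr10:67540799, was at 91.7%, 92.9% and 100% in 3 Wt libraries and at 61.5% to 100% in Tg (overdispersion adjusted p = 0.605). Neither call remained without the library labelled Wt male, without Wt female 3 or without Tg female 1, and the Fosb call was also lost without Wt female 2, Tg female 2 or Tg male 3.

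Calls in Nr4a1 went both ways, 3 lower and 3 higher. At chr15:101272919, in the stretch 5959 to 6179 bp from the start, all 6 Tg animals with a value were at 100%, as was Wt female 1. The Wt libraries averaged 84.7% ± 16 (SD, n = 4), and the difference was 15.6 points (overdispersion adjusted p = 0.525). At chr15:101270811 the mean was 76.4% ± 20.1 (n = 4) in Wt and 52.5% ± 28.5 (n = 6) in Tg, the most variable row of the gene (overdispersion adjusted p = 0.58). The directions depended on Tg female 1. Without it Nr4a1 had 8 calls higher in Tg and 0 lower, and the 10 genes together had 12 higher and 10 lower (67549 calls over all rows). Without the library labelled Wt male there were 16 calls (62413 over all rows), 2 higher and 14 lower, of which 12 were among the 22.

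**Figure D4:**
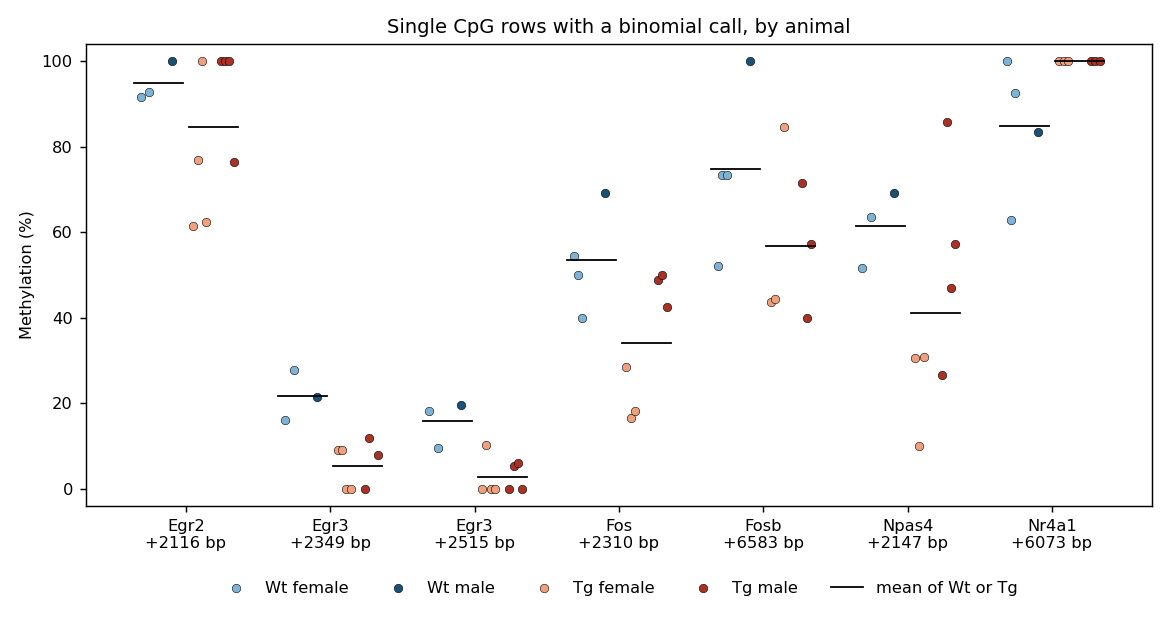
Each point is the methylation in percent of 1 CpG row in 1 animal (y axis), for 7 rows called by the binomial model, named by gene and distance in bp from the nearest start (x axis). Lines are the means of Wt and of Tg animals, and only at the Egr3 row 2349 bp from the start do Wt (16% to 27.8%) and Tg (0% to 12%) points not overlap.

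Both strands of a CpG are usually methylated alike, and they are read from different molecules. Of the 22 calls, 9 had a tested row on the opposite strand, and 7 of these differed in the same direction. The opposite strand differed by -9.27 to 1.27 points, so that in 0 of the 9 did it reach 10 points the same way, compared with 20.1% of 35821 such calls over all rows. Of those, 57.8% differed in the same direction.

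Reads were also summed over tiles of 200 bp. Of 111 tiles over the 10 genes, the binomial model called 3, with 4.15% of all 117980 tiles called, and the overdispersion model called 0, with 6 below 0.05 before adjustment (6.23% of all tiles were) and adjusted p values from 0.723 upward. A pair of the called tiles covered the Npas4 stretch. In chr19:4988201-4988400 the 3 Wt libraries with a value had 47.2%, 55.6% and 59.4%, and 7 Tg animals ranged from 25% to 78.5%, with a median of 43.7% (difference -15.3 points, overdispersion adjusted p = 0.860). The adjoining tile fell by 11.4 points. The third, in Egr2 at chr10:67540801-67541000, was higher in Tg by 10.7 points (overdispersion adjusted p = 0.859). The means per animal were 60.5% in 3 Wt libraries and 65.1% in 8 Tg animals. The Egr2 row called alone, which was lower in Tg, lay outside this tile.

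Mean levels per animal over each promoter and over the rest of each gene used the same rows in every animal. There were 10 promoters and 8 other regions with at least 3 rows read in all 12 libraries. limma called 0 of the 18 regions and 0% of 25318 regions of all genes, and the members' adjusted p values started at 0.992. None of the 18 had an unadjusted p under 0.05, compared with 4.17% of all regions. In the two-sided exact permutation test over all splits of the animals, 0 of the 18 had p under 0.05, with 4.09% of all regions below it. Differences here are between means over animals, each counted equally, and ran from -0.77 to 1.08 points, 11 higher and 7 lower in Tg. The smallest p value that the test can give was 0.00404.

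The pair of regions nearest to a difference were in EGR genes. The Egr3 promoter was at 1.79%, 1.76% and 1.29% in Wt females and was lowest, at 0.62%, in the library labelled Wt male, while Tg animals lay at 1.14% to 3.37% with a median of 2.25%. Tg exceeded Wt by 0.832 points (exact permutation p = 0.0646), and by 0.586 points (exact p = 0.194) without the library labelled Wt male. With promoters of 2000 bp it was 0.0997 points (exact p = 0.743). limma gave 0.970 ± 0.455 (SE) points with an adjusted p of 0.992. The rest of Egr4 was at 2.92%, 1.49%, 1.38% and 2.17% in Wt and at 0.676% to 2.05% in Tg animals, with a median of 1.14%. The difference was -0.767 points (exact permutation p = 0.0525), which came to -0.707 points (exact p = 0.145) without the library labelled Wt male and to -0.457 points (exact p = 0.158) without Wt female 1. Leaving out each animal in turn gave exact p values of 0.0242 to 0.158. Of the alternatives that kept all 12 libraries, 4 brought this p under 0.05, to between 0.0121 and 0.0485, and 1 of them, promoters of 2000 bp, moved the difference to -2.76 points. That setting is not the same region. It kept only rows more than 2000 bp from a start, and no Egr4 row lay beyond 2057 bp. The row at chr6:85511536, 2053 bp from a start and described below, was among them.

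Of the 316 rows of Egr4, 9 had an unadjusted overdispersion p under 0.01, or 2.85%, compared with 37 of the 1996 rows, or 1.85%, and with 1.95% of all rows. All 9 were lower in Tg, which was also the commoner direction among all rows below 0.05 (60.2%). Since the rows were picked by this p, a gap between their group means follows from the choice. Their means were 4.02% to 9.09% in Wt and 0% to 0.595% in Tg, with a smallest adjusted p of 0.512, and none reached a difference of 10 points. At chr6:85511536 in the 3' untranslated region the Wt levels were 4.35%, 11.8%, 5.71% and 5.26% and all 8 Tg animals were at 0%. Ranges were apart at 2 of the 1996 rows, this one and the Egr3 row above, compared with 0.250% of all rows.

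**Figure D5:**
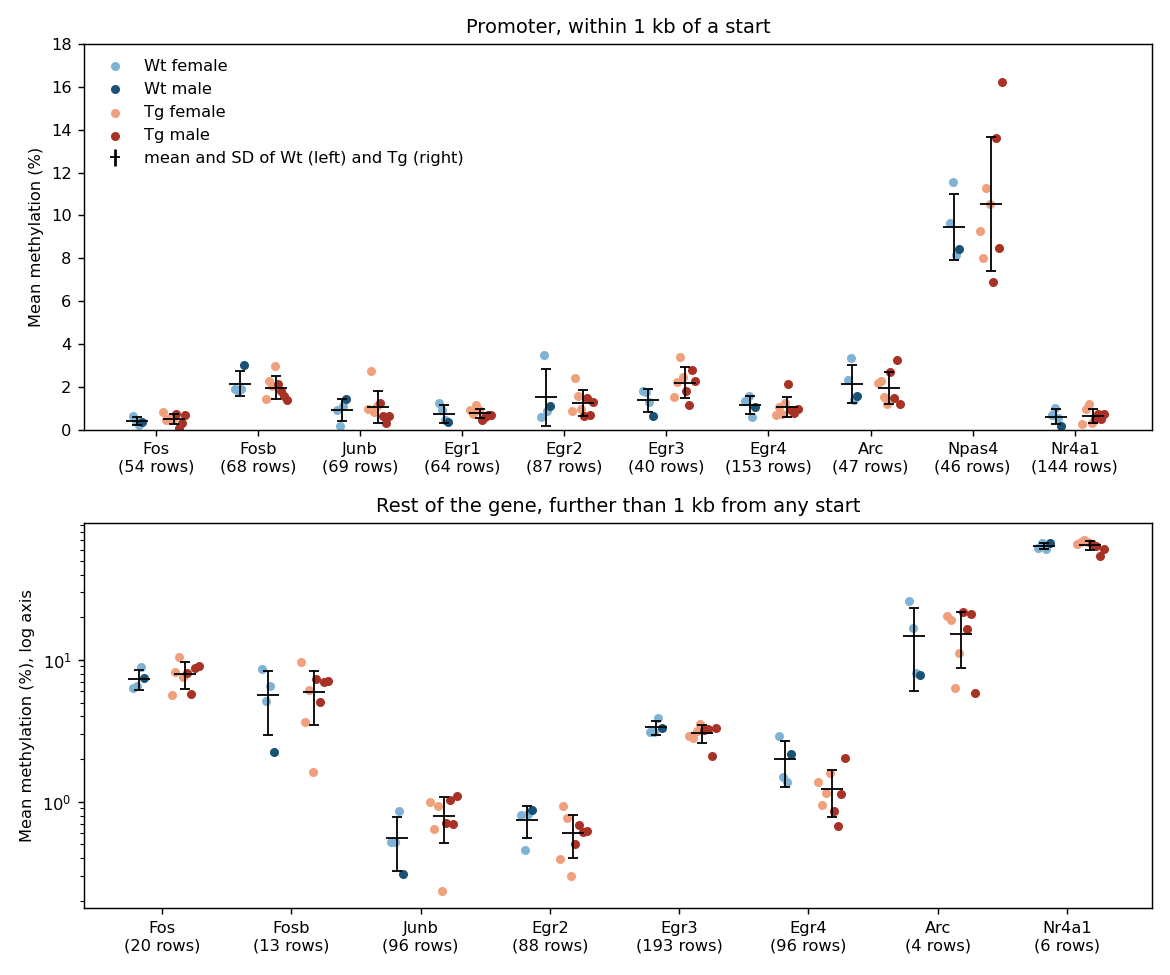
Points are the mean methylation in percent of each animal over the promoter (upper panel) or the rest of the gene (lower panel, log axis) of each gene, with the mean and SD of Wt on the left and Tg on the right of each pair. Groups overlap in all 18 regions, from promoters near 0.477% (Fos) to the rest of Nr4a1 at 64.3%.

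The most variable rows of the other genes were above 0% in few animals or far apart in 1. In Junb the row at -252 bp from a start was at 40% in Tg female 2 and 0% in the 10 other libraries with a value. In Egr4 the row 1072 bp from a start was at 55.6% in Tg female 3, 26.3% in Tg male 2 and 5.26% in Wt female 1, and 0% in the others. In Egr1 the row at -315 bp from the nearest start was at 17.8% in Tg female 3, 11.7% in Tg male 4, 2.30% in Tg female 1 and 0% elsewhere. In Egr3 the most variable row, at chr14:70079107, was at 50% in Tg female 4 and no higher than 20% in any other library.

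Sex was compared within Tg animals, 4 males with 4 females, since only 1 library was labelled Wt male. The binomial model called 36 of 1986 rows, or 1.81%, compared with 5.10% of all autosomal rows, 25 higher and 11 lower in males. Nr4a1 had 11 of them, Npas4 7, Fosb 6, Egr3 5, Fos 4, Egr2 2 and Egr4 1. The overdispersion model called 0 of these rows and 0% of all rows. Before adjustment 5.09% of them were below 0.05, compared with 4.92% of all, and the adjusted p values started at 0.699. Of the 18 regions, 2 reached the smallest p that 4 against 4 animals allow in an exact permutation test (p = 0.0286), with 2.43% of all autosomal regions under 0.05. The Egr1 promoter averaged 0.927% ± 0.18 in females and 0.601% ± 0.114 in males (SD, n = 4 each). The rest of Nr4a1, over 6 rows, averaged 67.8% ± 1.55 in females and 61.1% ± 5.06 in males. The Nr4a1 difference of -6.66 points came to -3.03 (exact p = 0.486) when reads were summed and turned to 1.51 (exact p = 0.714) over rows in at least 9 libraries, where Egr1 came to -0.18 (exact p = 0.229). Adjusted over all regions both had p = 1 (exact test, Benjamini-Hochberg).

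Other genes of the activity response were described from lists. Of 35 further activity-induced genes, 34 were found in the annotation, with 5984 rows. The binomial model called 81, or 1.35%, compared with 4.39% of all rows, and the overdispersion model called 0. Of the 81, 51 were higher and 30 lower in Tg, where 2.39% of all rows were called higher and 2.0% lower. All 34 promoters averaged under 5%. In 12 regulators upstream, among them Creb1, Srf and Mef2c, 25 of 1502 rows were called, or 1.66%, 15 higher and 10 lower. In Nab1 and Nab2, which encode corepressors bound by EGR proteins, 6 of 338 rows were called, 3 each way. limma called 0 of the 79 regions of these lists. Rows with a binomial call and ranges apart numbered 7 of 5984, 2 of 1502 and 1 of 338 in the 3 lists, compared with 0.19% of all rows. Since the rows named next were picked by this rule, a gap between their group means follows from the choice and is only described. At a Creb1 row (chr1:64532972) the mean was 14.5% ± 3.54 (SD, n = 3) in Wt, and all 7 Tg animals with a value were at 0% (overdispersion adjusted p = 0.512). At an Atf3 row (chr1:191182459) it was 10.6% ± 6.42 (n = 4) in Wt and 0.641% ± 1.19 (n = 8) in Tg. In the other direction, an Nr4a3 row (chr4:48051725) was at 0% in 3 Wt libraries and 17.8% ± 12.6 (n = 7) in Tg, and a Csrnp1 row (chr9:119973415) was at 58.1% ± 14.8 (n = 4) in Wt and 87.8% ± 9.79 (n = 7) in Tg. The Csrnp1 rows also lie in Cx3cr1, a microglial gene that overlaps the window. The other 6 rows were in Nr4a2, Ier5, Dusp1, Csrnp1, Crtc1 and Nab1. None of the 10 passed the overdispersion model after adjustment.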

How the data were processed

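RRBS was performed on brain DNA of 12 mice. The authors used mm10, Bismark for alignment and methylation calling, and methylKit; versions are not given in the sources used here. Per the file headers, the deposited values were counts per cytosine of a CpG: coverage, methylated reads and converted reads, strands apart, 1 file per animal, with at least 10 reads. Rows with fewer reads were not analysed here. Duplicated positions (11) were dropped. Of the rows used, 99.9975% lay in a CpG of the reference. Levels are methylated reads over coverage, and their precision is limited by counting error at 10 or more reads per row. Nothing in the labels tied samples to litters. P-values of the overdispersion model, limma and the exact permutation test measure the spread between these animals. Those of the binomial model treat reads as independent draws and do not measure it.

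Logistic regressions on genotype and sex were fitted to all 1697478 rows in Python 3.11.15 (numpy 2.4.6, scipy 1.17.1). The binomial model used a likelihood-ratio test and the overdispersion model an F test on the deviance over a Pearson dispersion of at least 1. P-values were adjusted over all rows by Benjamini-Hochberg. Mean levels of gene regions were fitted with limma 3.58.1 (R 4.3.3, trend). The genotype models per row and the limma fit were run on simulated data, the other steps were not. With extra spread between simulated animals, the overdispersion model recovered 3 of 200 changed rows with 2 false calls. The binomial model recovered 184 with 991 false calls. Without extra spread the overdispersion model recovered 93 and the binomial model 186. A low count of calls under the overdispersion model does not show that rows did not differ.

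Rows named singly were calls of the overdispersion model, binomial calls with ranges apart, otherwise the binomial call of each gene with the smallest overdispersion p, rows in a TGACGTCA, and the most variable row of each gene. Genes of other lists were named only for calls with ranges apart. Stretches were runs of at least 2 rows at 20% or more, at most 250 bp apart, described with no test. Other rows named, the stretches, the EGR match and the 200 bp tiles were chosen after seeing the data. The members and lists were chosen with earlier results of these data known.
Alternatives were other read minimums, library requirements, promoter widths and difference thresholds, no covariate, summed strands or reads, females only, and leaving out each animal. One sequence is not reported here.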

Additional observations from a re-analysis of the deposited data

Results flagged for a closer look

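In 4 of 36 groups of mean levels, 1 animal stood apart from the rest of its group by Dixon's criterion, where chance gives about 1 in 20. The Fosb promoter was at 3.02% in the library labelled Wt male and at 1.78% to 1.91% in the 3 Wt females. That library had 13 of 68 rows at 5% or more, and the other 11 libraries had 3 to 14. The Junb promoter was at 2.72% in Tg female 2 and at 0.311% to 1.24% in the 7 other Tg animals, with 8 of 69 rows at 5% or more, where the other libraries had 1 to 11. The Egr4 promoter was at 2.12% in Tg male 1 and at 0.698% to 1.27% in the other Tg animals, with 25 of 153 rows at 5% or more, where the other libraries had 5 to 23. The rest of Egr2 was at 0.459% in Wt female 2 and at 0.811% to 0.875% in the other Wt libraries.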

How the results depend on the processing

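The 22 binomial calls for genotype became 1 at a difference of 25 points, where 8143 of all 1697478 rows were called. They became 1 over rows in all 12 libraries (16871 of all 980547) and 5 at a read minimum of 20 (20846 over all rows). In females only there were 32, 9 higher and 23 lower in Tg (87471 over all rows). There were 24 with no covariate (80734 over all rows) and 23 of 1207 CpGs with strands summed (56916 over all CpGs). Leaving out 1 animal gave 16 (without the library labelled Wt male) to 27. Over all rows there were 62413 calls without that library and 90777 without Wt female 1, where these genes had 27. The 36 sex calls became 15 over rows in all 8 Tg libraries and 18 at a minimum of 20, and 33 to 47 with 1 animal left out. The overdispersion model and limma gave 0 calls in the 10 genes under every alternative run, and the cause of the other changes was not tested. Region counts at an exact p under 0.05, 0 for genotype, became 1 with summed reads, 1 with promoters of 2000 bp, 1 at a minimum of 20, 2 over rows in at least 9 libraries, and 0 to 2 with 1 animal left out. For sex the count of 2 became 1 with summed reads, 1 at a minimum of 20 and 0 over rows in at least 9 libraries (chosen after seeing the data), where Nr4a1 outside the promoter turned to 1.51 points. Leaving out 1 animal gave 0 for sex, where the smallest exact p is 0.0571. For these alternatives the count over the regions of all genes was not taken. Uncalled differences, Tg minus Wt in points, changed sign as follows. Over rows in at least 9 libraries, the parts outside the promoter came to -0.924 in Fos, -2.91 in Fosb, 0.744 in Egr2 and -1.52 in Nr4a1. At a minimum of 20, promoters came to 0.28 in Fosb, -0.504 in Egr1 and 0.268 in Egr2. In females only, Fosb came to 0.317 (promoter) and -1.52 (outside), Arc outside to -2.73, and the Npas4 and Nr4a1 promoters to -0.0242 and -0.0566. Summed reads gave -0.0721 for the Egr1 promoter and 0.0897 for Arc's, and promoters of 2000 bp gave 0.16 for Egr2 outside. With 1 animal left out, promoter differences spanned -0.346 to 0.0905 in Fosb, -0.101 to 0.31 in Junb, -0.108 to 0.202 in Egr1, -0.583 to 0.385 in Egr2, -0.258 to 0.0756 in Egr4, -0.436 to 0.213 in Arc and -0.0891 to 0.187 in Nr4a1. Outside promoters they spanned -0.857 to 1.3 in Fosb, -1.67 to 4.42 in Arc and -0.376 to 2.0 in Nr4a1. No paired analysis was possible because the labels give no replicate numbers. Tg female 4, the shallowest library, lacked a value at 11 called rows, and so did Wt female 2, whose median of 48 reads per row was not low.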
